A study of Mus musculus with 6 samples.

Results

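The 10 genes described here mark osteoblasts, the cells that lay down bone, and osteocytes, the cells that osteoblasts become once bone surrounds them. They are Runx2, Sp7, Alpl, Bglap, Ibsp, Spp1, Dmp1, Mepe, Phex and Sost, taken by symbol from a list of names that uses no threshold on their values, though the list was drawn up with earlier results of these data known. All 10 were present in both expression tables, among 21982 symbols that the tables share. The RNA came from olfactory epithelium, the nasal lining that holds the olfactory sensory neurons, so bone genes are not genes of the labelled tissue itself.

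The study asked how enzymes that place repressive histone marks bear on olfactory receptor expression. Polyadenylated RNA of 6 libraries was sequenced, with 1 library per genotype, so there was no replicate error and no test between genotypes of its own is given here. At E18.5, late in embryonic life, the libraries were a G9a/GLP double knockout, a g9a KO GLP heterozygote, a g9a knockout and a g9a heterozygote; G9a and GLP methylate histone H3. At postnatal day 21 they were a suv420H1/suv420H2 double knockout and a suv420H1/suv420H2 double heterozygote, called the postnatal double knockout and the postnatal double heterozygote below; these enzymes methylate histone H4. Each control thus carried mutant alleles too, and all animals were of a mixed background, chiefly C57/B6. The labels give no deleted exon, no Cre driver and no number of animals per library. The targeted genes could not check the labels: Ehmt2 (G9a) was at 30.4 FPKM in the G9a/GLP double knockout and 24.5 FPKM in the g9a heterozygote, and Suv420h1 at 30.6 FPKM in the postnatal double knockout and 31.0 FPKM in the postnatal double heterozygote.

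Bone formation starts with transcription factors that commit a precursor to the osteoblast fate. The osteoblast then secretes a matrix of type I collagen and acidic, mineral-binding proteins, and enzymes that free phosphate let mineral grow in it. Osteocytes add proteins that act on phosphate balance and on Wnt signalling, which drives further bone formation. The nasal cavity is lined by thin bones, the turbinates, on which the olfactory epithelium lies.

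Markers of the labelled tissue were present in every library. Omp, the olfactory marker protein, was at 24.0, 21.2, 36.0 and 78.6 FPKM in the G9a/GLP double knockout, the g9a KO GLP heterozygote, the g9a knockout and the g9a heterozygote, and at 1108 FPKM in the postnatal double knockout and 1124 FPKM in the postnatal double heterozygote. Values are FPKM, which corrects fragment numbers for transcript length and library size. The embryonic table also gives the authors' confidence interval of each FPKM, at an unstated level, and the postnatal table gives their p and q of 1 library against the other. In bulk RNA, fewer bone cells and less RNA per bone cell cannot be told apart.

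The promoters of the members hold the sequences from which their transcripts start, and those shown here carry a match to the site that Runx2 and its relatives bind. RefSeq promoters on GRCm38.p6, 250 bases before to 50 bases after a transcription start, were found for 9 of the 10 members, in 12 windows; Sp7 had none. The motif AACCACA, read on both strands (reverse complement TGTGGTT), was in the windows of Runx2, Dmp1 and Spp1, which is 3 of the 12, against 5.27% of all 32851 windows. The shorter core ACCACA (reverse complement TGTGGT), searched after the promoters had been read and contained in each AACCACA match, was in 5 of the 12 windows, adding those of Bglap and Mepe, against 16.8% of all windows. The windows shown are Runx2 at chr17:44814578-44814877 (minus strand), Spp1 at chr5:104434861-104435160 (plus), Dmp1 at chr5:104202367-104202666 (plus, the downstream one of its 2 starts), Bglap at chr3:88384417-88384716 (minus) and Mepe at chr5:104325079-104325378 (plus), each 5′ to 3′, with ACCACA or TGTGGT in capitals.
Runx2: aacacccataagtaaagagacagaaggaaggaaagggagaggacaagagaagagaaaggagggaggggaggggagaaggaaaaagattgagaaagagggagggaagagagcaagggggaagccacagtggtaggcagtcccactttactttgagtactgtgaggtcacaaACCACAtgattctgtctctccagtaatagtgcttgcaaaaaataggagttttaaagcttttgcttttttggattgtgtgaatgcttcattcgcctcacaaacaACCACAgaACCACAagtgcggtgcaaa
Spp1: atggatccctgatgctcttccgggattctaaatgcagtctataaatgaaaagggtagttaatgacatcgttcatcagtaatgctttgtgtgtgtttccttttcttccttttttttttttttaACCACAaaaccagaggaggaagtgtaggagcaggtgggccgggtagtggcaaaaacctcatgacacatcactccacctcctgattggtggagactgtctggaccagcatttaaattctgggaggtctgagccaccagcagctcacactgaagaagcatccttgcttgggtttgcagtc
Dmp1: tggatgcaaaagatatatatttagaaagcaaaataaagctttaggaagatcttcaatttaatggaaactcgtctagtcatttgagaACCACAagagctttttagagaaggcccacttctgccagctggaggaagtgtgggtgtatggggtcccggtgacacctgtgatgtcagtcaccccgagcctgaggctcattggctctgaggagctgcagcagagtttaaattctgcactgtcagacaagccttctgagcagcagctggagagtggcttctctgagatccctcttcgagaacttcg
Bglap: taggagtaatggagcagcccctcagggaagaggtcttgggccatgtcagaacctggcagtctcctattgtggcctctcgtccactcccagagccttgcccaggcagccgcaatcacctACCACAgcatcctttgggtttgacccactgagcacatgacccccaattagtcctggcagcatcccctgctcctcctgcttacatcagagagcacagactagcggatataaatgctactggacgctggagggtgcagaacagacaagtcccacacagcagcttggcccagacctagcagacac
Mepe: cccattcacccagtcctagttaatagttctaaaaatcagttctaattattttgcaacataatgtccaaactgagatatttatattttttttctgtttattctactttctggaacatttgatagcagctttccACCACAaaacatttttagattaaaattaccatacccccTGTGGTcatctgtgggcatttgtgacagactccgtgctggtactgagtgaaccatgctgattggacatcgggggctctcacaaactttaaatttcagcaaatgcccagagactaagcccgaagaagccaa
Runx2 held 3 matches, at 80 bases before the start and at 24 and 32 bases into the transcript. The matches of Dmp1, Bglap and Spp1 lay upstream of the start too, and Mepe held a direct and a reverse match. A match is a description of letters and not a site shown to be bound.

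All 10 genes had an FPKM above 0 in all 6 libraries. In the embryonic libraries Spp1 and Ibsp stood at the top, at 499.6 to 896 FPKM, with overlapping intervals in every library. Bglap followed at 93.9 to 281 FPKM. Its interval overlapped those of Alpl and Dmp1 in the g9a KO GLP heterozygote and the g9a knockout. Alpl and Dmp1 came next at 49.9 to 102 FPKM and could not be ordered by their intervals in any of the 4 libraries. The interval of Dmp1 also overlapped that of Sp7, below it, in the G9a/GLP double knockout and the g9a KO GLP heterozygote. That of Alpl overlapped Sp7 in the g9a KO GLP heterozygote. Phex, Runx2 and Sp7 lay between 22.4 and 45.7 FPKM, with overlapping intervals between neighbours. Sost and Mepe were lowest, at 0.751 to 5.34 FPKM, with intervals apart in the G9a/GLP double knockout alone. In the postnatal libraries Bglap was the highest member and Sost the lowest. Bglap ranked as gene 120 of 22028 by FPKM in the postnatal double knockout and as gene 30 in the postnatal double heterozygote. The sum over the 10 genes was 1641 FPKM in the G9a/GLP double knockout, 1948 in the g9a KO GLP heterozygote, 2013 in the g9a knockout and 2229 in the g9a heterozygote. It was 787 FPKM in the postnatal double knockout and 2419 FPKM in the postnatal double heterozygote.

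**Figure D1:**
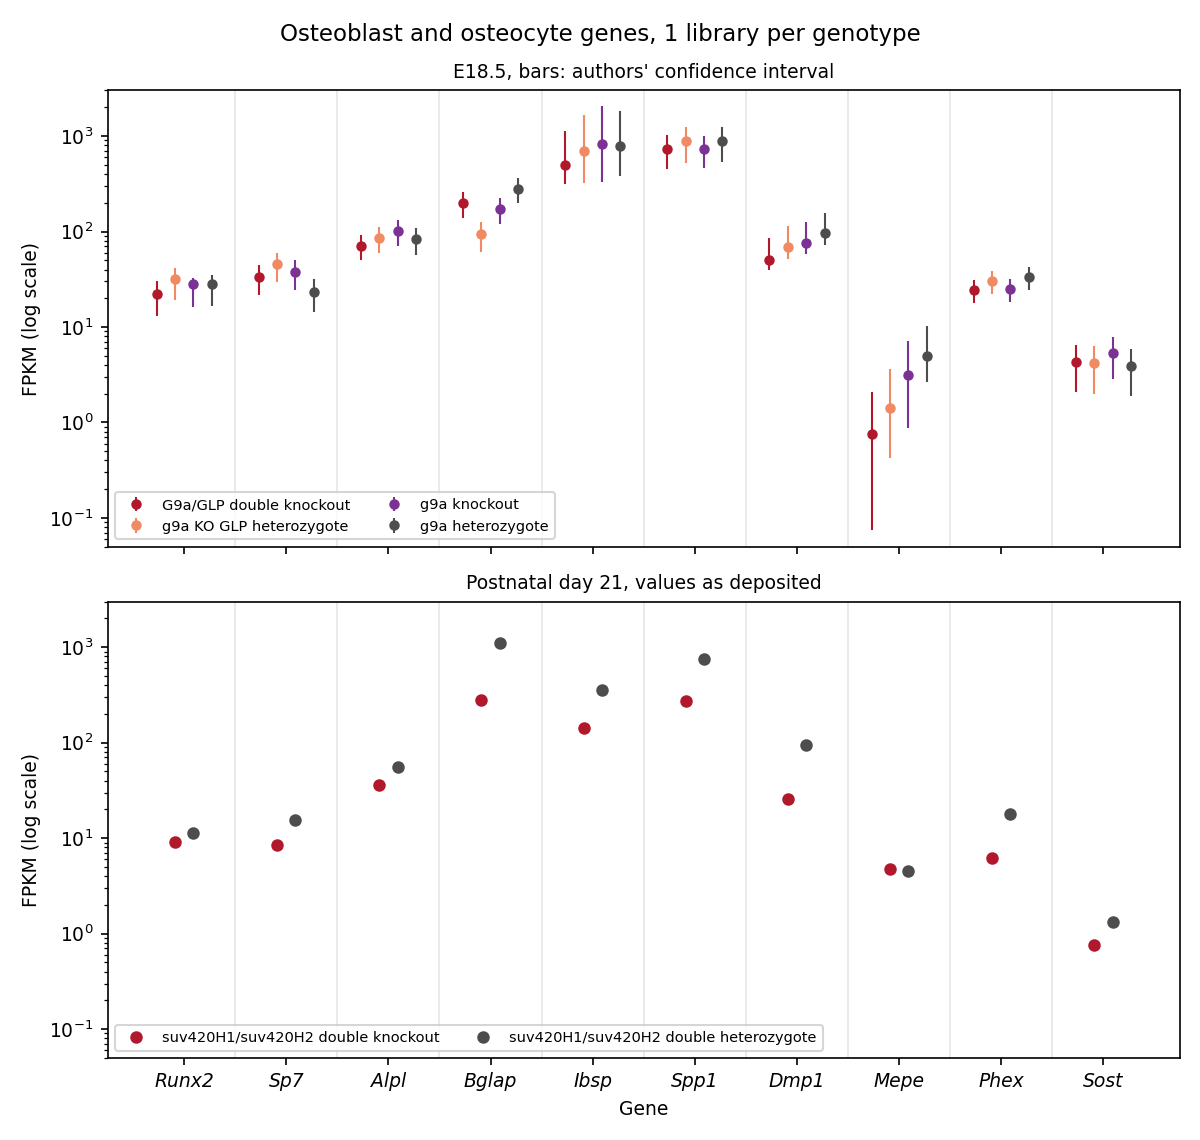
FPKM of each gene (log axis) in the 4 embryonic libraries, with the authors' confidence interval as bars, and in the 2 postnatal libraries; each point is 1 library. Spp1 and Ibsp lead in the embryonic libraries, Mepe spreads most, from 0.751 FPKM in the G9a/GLP double knockout to 4.96 FPKM in the g9a heterozygote, and 9 of 10 postnatal points are lower in the double knockout.

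At postnatal day 21 the bone genes were lower in the double knockout library. Of the 10 genes, 5 were at least 2-fold lower on log2(FPKM + 1), against 2.33% of 15162 genes that reached 1 FPKM in at least one of the libraries, and none was at least 2-fold higher, against 1.21%. They were Bglap, Dmp1, Spp1, Phex and Ibsp. Mepe alone of the 10 had a ratio above 0. Over all 15162 genes compared, 9029 had a ratio below 0. The median log2 ratio of the 10 was -1.06, against -0.06 over all genes compared. In the authors' deposited table, 7 of the 10 were lower with a q under 0.05 and none was higher, against 3.48% and 0.644% of the 16140 genes tested there. That table compares 1 library with another, so a small q concerns the libraries and not the genotypes. Over the same libraries the markers of mature olfactory neurons had a summed FPKM of 3920 in the double knockout and 3932 in the double heterozygote.

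The transcription factors at the head of the pathway were lower by less than 2-fold. Runx2 (mm9 chromosome 17, 44740950 to 45256233), without which no osteoblasts form, was at 9.13 FPKM in the postnatal double knockout and 11.2 FPKM in the postnatal double heterozygote. Its log2 ratio was -0.27, and the authors' deposited table lists a q of 0.185. Sp7 or osterix (chromosome 15, 102187608 to 102196702), which acts after Runx2, was at 8.39 FPKM in the double knockout and 15.4 FPKM in the double heterozygote. Its log2 ratio was -0.81, and the authors' deposited table lists a q of 0.0216. Of 12 other transcription factors of the lineage, 10 had a ratio below 0, against 9029 of all 15162 genes, with a median of -0.59. At least 2-fold lower was 1 of the 12, against 2.33% of all genes, and none was 2-fold higher, against 1.21%. The one past 2-fold was Msx1, a homeobox factor of the facial skeleton, at 0.486 FPKM in the double knockout and 2.82 FPKM in the double heterozygote. Atf4, a stress-responsive factor made in most cells, was at 151 FPKM in the double knockout and 144 FPKM in the double heterozygote.

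Of the genes of the mineralising matrix, Bglap, Ibsp and Spp1 were at least 2-fold lower and Alpl was not. Alpl (chromosome 4, 137297647 to 137352292), the alkaline phosphatase that clears the mineral inhibitor pyrophosphate, was at 35.6 FPKM in the postnatal double knockout and 56.2 FPKM in the postnatal double heterozygote. Its q was 0.00264 in the authors' deposited table, and its log2 ratio of -0.64 stayed within 2-fold. Bglap (chromosome 3, 88187417 to 88188386), which encodes osteocalcin, was at 282 FPKM in the double knockout and 1114 FPKM in the double heterozygote, a log2 ratio of -1.98. It ranked as the 49th lowest ratio of 15162 genes. Ibsp, bone sialoprotein (chromosome 5, 104728306 to 104740491), was at 144 FPKM in the double knockout and 359 FPKM in the double heterozygote, a log2 ratio of -1.31. Spp1, osteopontin (chromosome 5, 104864130 to 104870072), was at 270 FPKM in the double knockout and 746 FPKM in the double heterozygote, a log2 ratio of -1.46. These 3 matrix genes were each given a q of 0 by the authors' deposited table. Osteopontin is also made outside bone, by macrophages among others. The macrophage markers had a summed FPKM of 223 in the double knockout and 218 in the double heterozygote, of which Lyz2, which neutrophils also make, held 185 and 157 FPKM. Their median log2 ratio was -0.62, with none past 2-fold. Of 7 measured markers 5 were below 0, against 9029 of all 15162 genes. The part of macrophages in the Spp1 value was not tested.

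The osteocyte genes did not move as one. Dmp1 (chromosome 5, 104631636 to 104643121), an acidic matrix protein of osteocytes that binds mineral, was at 25.8 FPKM in the postnatal double knockout and 94.2 FPKM in the postnatal double heterozygote. Its log2 ratio was -1.83, and the authors' deposited table lists a q of 0. Phex (X chromosome, 153596618 to 153853218), a membrane endopeptidase whose loss causes phosphate wasting, was at 6.14 FPKM in the double knockout and 17.8 FPKM in the double heterozygote, a log2 ratio of -1.40. Its q was 8.27e-13 in the authors' deposited table. Xist, transcribed from the inactive X, had 112 FPKM in the double knockout and 120 FPKM in the double heterozygote, so the libraries do not differ in the sex of the animals by that gene. Mepe (chromosome 5, 104754348 to 104767630), a phosphoglycoprotein of osteocytes and odontoblasts, was at 4.76 FPKM in the double knockout and 4.51 FPKM in the double heterozygote. Its log2 ratio was 0.06, and the authors' deposited table lists a q of 0.964. Odontoblasts are cells of teeth, and 4 listed genes of enamel and dentin reached 1 FPKM in this pair. Amelx and Ambn, of enamel, and Dspp, of dentin, were at least 2-fold higher in the same double knockout library. Odam, of the enamel organ, was lower, at 73.5 FPKM there and 103 FPKM in the double heterozygote. The part of tooth tissue in the Mepe value was not tested. Sost (chromosome 11, 101823772 to 101828329), which encodes the secreted Wnt inhibitor sclerostin, was at 0.767 FPKM in the double knockout and 1.31 FPKM in the double heterozygote. Its q was 0.623 in the authors' deposited table. Steps in the low values of receptor genes put Sost at about 20.9 fragments in the double knockout and 43.4 in the double heterozygote, and Mepe at about 106 and 122, while every other member had an estimated 343 or more in each postnatal library.

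**Figure D2:**
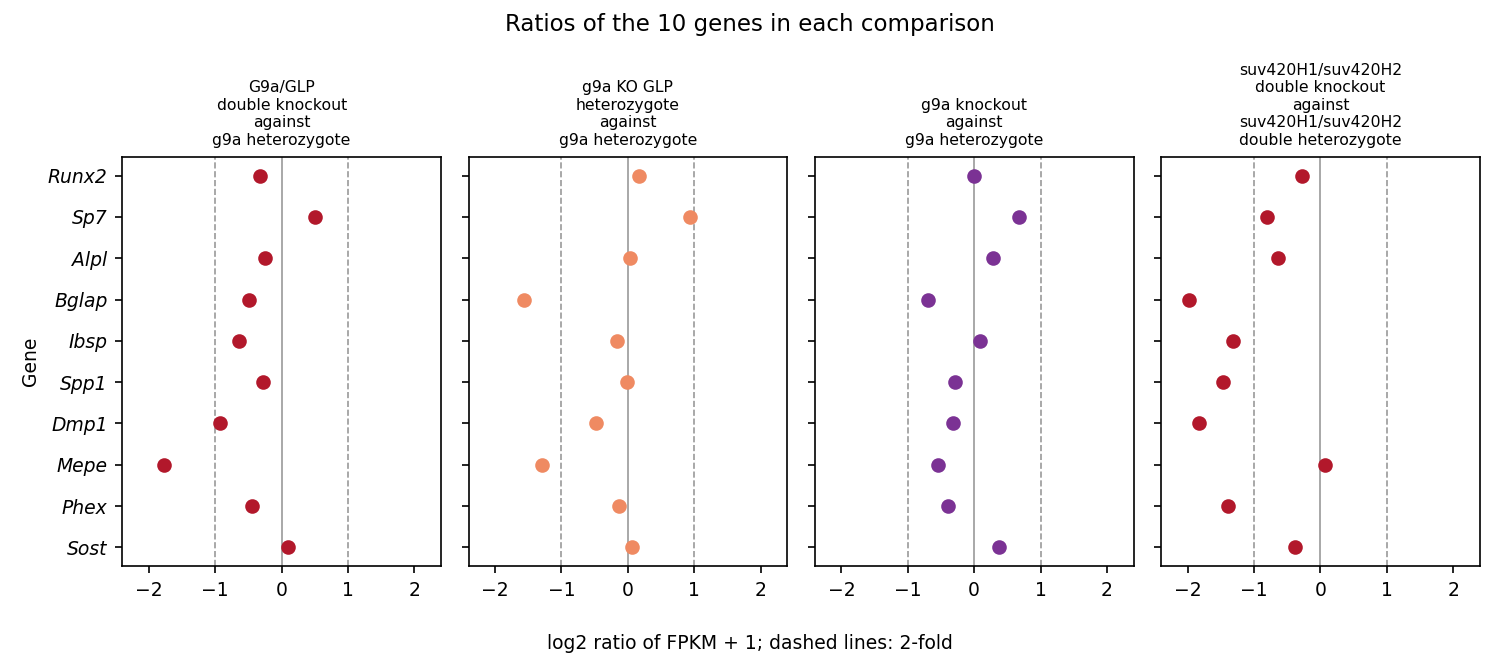
Log2 ratios of FPKM + 1 for each gene in the 4 comparisons; each point compares 1 library with 1 library, and dashed lines mark 2-fold. Bglap, Ibsp, Spp1, Dmp1 and Phex lie past the lower line in the postnatal comparison, Bglap and Mepe in that of the g9a KO GLP heterozygote, and Mepe in that of the G9a/GLP double knockout.

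Other genes of bone and of its resorption were lower in the same postnatal library. Of 22 other matrix and mineral genes of osteoblasts, 21 had a ratio below 0, against 9029 of all 15162 genes, with a median of -0.70. At least 2-fold lower were 8 of the 22, against 2.33% of all genes, and none was 2-fold higher, against 1.21%. Of the 22, 13 were lower with a q under 0.05 in the authors' deposited table, against 3.48% of genes tested there. Col1a1, a chain of type I collagen, was at 660 FPKM in the double knockout and 1858 FPKM in the double heterozygote, and Col1a2, the other chain, at 570 and 1581 FPKM in that order. Tmem119, a membrane protein of osteoblasts, was at 8.19 FPKM in the double knockout and 22.8 FPKM in the double heterozygote. Phospho1, a phosphatase that frees phosphate inside matrix vesicles, was at 12.2 FPKM in the double knockout and 11.9 FPKM in the double heterozygote, the 1 gene of the list above 0. Among 13 osteoclast genes 12 reached 1 FPKM in either library, of which 11 had a ratio below 0, with a median of -0.79. At least 2-fold lower were 4 of the 12, against 2.33% of all genes. Acp5, the tartrate-resistant acid phosphatase of osteoclasts, was at 41.3 FPKM in the double knockout and 121 FPKM in the double heterozygote. Ctsk, the collagen-cleaving cathepsin, was at 84.3 FPKM in the double knockout and 203 FPKM in the double heterozygote. Among 12 osteocyte and bone turnover genes 11 reached that minimum, all with a ratio below 0. Of these, 1 was at least 2-fold lower, against 2.33% of all genes. That one was Gja1, a gap junction protein found in many cell types, at 37.7 FPKM in the double knockout and 77.1 FPKM in the double heterozygote.

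Genes of neighbouring tissues differed in both directions in the postnatal pair. Of the listed genes of enamel and dentin, 4 reached 1 FPKM. In the double knockout 3 of them were at least 2-fold higher, against 1.21% of all genes. None was 2-fold lower, and the median was 2.11. Amelx, the main enamel protein, was at 19.7 FPKM in the double knockout and listed at 0 in the double heterozygote. Ambn, ameloblastin of the enamel matrix, was at 4.17 FPKM in the double knockout and 0.154 FPKM in the double heterozygote, and Dspp, of dentin, at 3.38 and 0.0488 FPKM. The fourth, Odam, of the enamel organ, was at 73.5 FPKM in the double knockout and 103 FPKM in the double heterozygote. The summed FPKM of the 8 listed genes, mostly Odam, was 101 in the double knockout and 103 in the double heterozygote. Cartilage genes had a median of -0.27, with 3 of 14 measured at least 2-fold lower, against 2.33% of all genes. The 3 were Col11a2, a minor fibrillar collagen, at 15.0 FPKM in the double knockout and 38.4 FPKM in the double heterozygote; Mmp13, a collagenase shared with osteoblasts, at 53.9 and 150 FPKM; and Col10a1, the collagen of hypertrophic cartilage, at 2.08 and 6.14 FPKM. Matn1, a cartilage matrilin, was listed at 0 in both libraries, and Col2a1, the main cartilage collagen, was at 1.63 FPKM in the double knockout and 3.05 FPKM in the double heterozygote. Mesenchyme and fibroblast genes had a median of -0.71, with all 7 measured below 0, against 9029 of all 15162 genes. Their summed FPKM was 405 in the double knockout and 575 in the double heterozygote. The median over supporting cell genes was 0.02, and their summed FPKM was 5912 in the double knockout and 5875 in the double heterozygote. The amount of bone or connective tissue taken with the epithelium cannot be told apart from the genotype, with 1 library each.

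**Figure D3:**
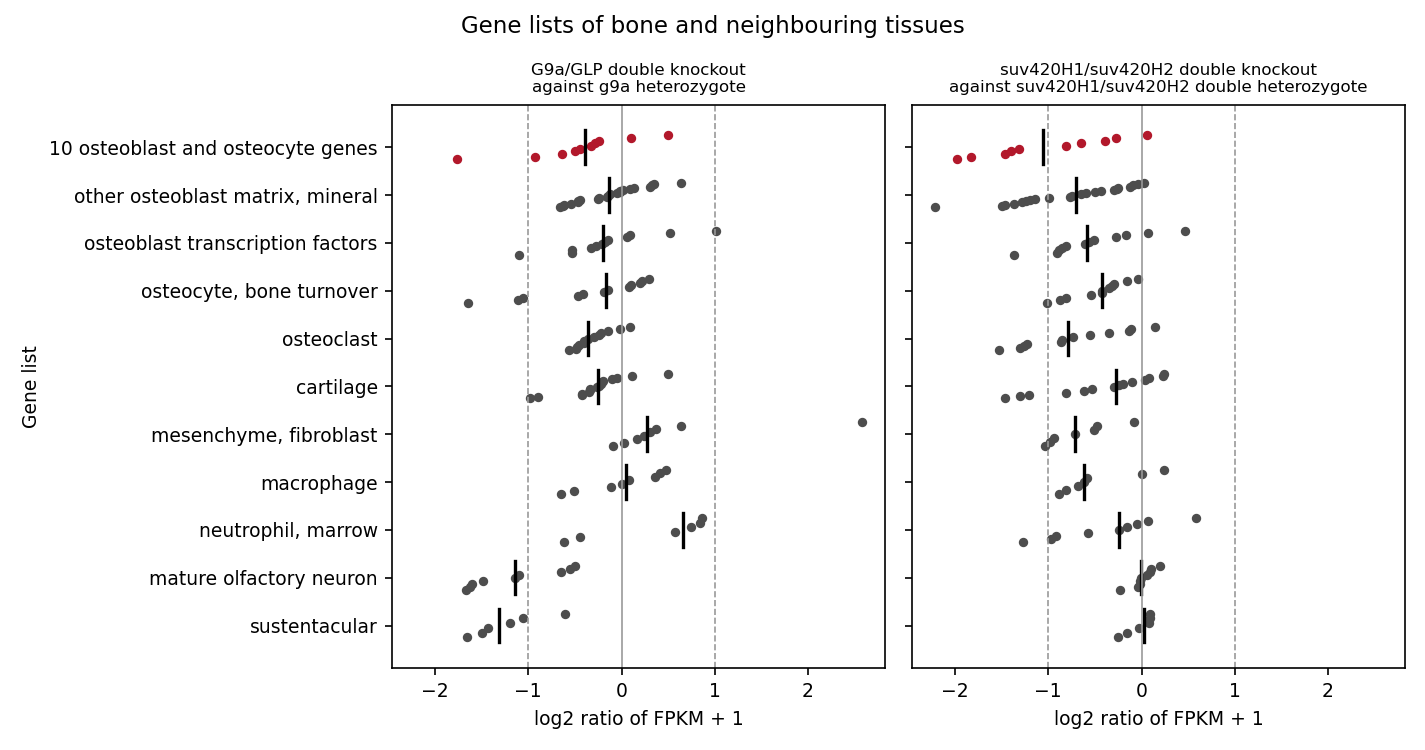
Log2 ratios of FPKM + 1 by gene list; each point is 1 gene at 1 FPKM or more in either library, black bars are list medians and dashed lines mark 2-fold. In the postnatal comparison the 10 members have a median of -1.06 while mature olfactory neuron markers have one of -0.01; in the embryonic one the medians are -0.39 and -1.14.

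Set against type I collagen, the postnatal pair looked different. The geometric mean of Col1a1 and Col1a2 was 613 FPKM in the double knockout and 1714 FPKM in the double heterozygote. Divided by it, Spp1 and Phex had ratios of 1.01 and 0.964 between the libraries, double knockout over double heterozygote, and Ibsp one of 1.12. Bglap and Dmp1 stayed lower, at 0.706 and 0.764. Sp7, Sost and Alpl, lower before, had ratios of 1.52, 1.64 and 1.77. Runx2 and Mepe were at least 2-fold higher on that scale, at 2.27 and 2.94, and none of the 10 was 2-fold lower. In all, 7 of the 10 lay above 1 on that scale. The divisor was itself lower in the double knockout, so a gene level in FPKM comes out higher on that scale. Mepe, at 4.76 FPKM in the double knockout and 4.51 FPKM in the double heterozygote, is such a gene. The share of all genes past 2-fold on that scale was not computed, so these counts have no background. Type I collagen is itself made by osteoblasts and by fibroblasts, and this scale was chosen after the values were seen.

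Among the embryonic libraries most of the 10 genes differed little. In the G9a/GLP double knockout, 1 of the 10 was at least 2-fold lower than in the g9a heterozygote, against 3.28% of 15382 genes, and none was higher, against 2.28%. The median log2 ratio was -0.39, against 0.01 over all genes compared. Below 0 were 8 of 10 ratios, against 7523 of all 15382 genes. In the g9a KO GLP heterozygote, 2 of the 10 were at least 2-fold lower, against 4.84% of 15317 genes, and none higher, against 2.29%. The median there was -0.07. In the g9a knockout none of the 10 was 2-fold apart, against 1.78% lower and 1.21% higher of 15259 genes, with a median of -0.15. All 3 comparisons share the g9a heterozygote library. For 8 of the 10 genes the authors' intervals of all 4 libraries had values in common, and the exceptions were Bglap and Mepe. The share of all genes with such intervals was not computed, so this count has no background.

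Mepe was the member that differed most among the embryonic libraries. It was at 0.751 FPKM in the G9a/GLP double knockout (authors' interval 0.0742 to 2.08), 1.42 in the g9a KO GLP heterozygote (0.420 to 3.61), 3.10 in the g9a knockout (0.865 to 7.12) and 4.96 in the g9a heterozygote (2.65 to 10.4). The double knockout had the lowest value and the g9a heterozygote the highest, and only that pair had intervals apart. The log2 ratio of that pair was -1.77, with a fold of FPKM itself of 0.151. At least 2-fold lower with intervals apart were 2.16% of genes in that comparison. Against the g9a heterozygote, the ratio was -1.30 in the g9a KO GLP heterozygote, with overlapping intervals, and -0.54 in the g9a knockout. Odontoblasts of teeth also make Mepe. All 8 genes of enamel and dentin were at least 2-fold lower in the G9a/GLP double knockout than in the g9a heterozygote, against 3.28% of all genes. Their summed FPKM was 13.0 in the double knockout and 1004 in the g9a heterozygote, of which Amelx held 737. Their sum was 41.3 FPKM in the g9a KO GLP heterozygote and 509 FPKM in the g9a knockout. Dspp, of dentin, was at 2.62 FPKM in the double knockout and 12.0 in the g9a KO GLP heterozygote. It was nearly level between the g9a knockout and the g9a heterozygote, at 31.9 and 31.1 FPKM. Amelx, the main enamel protein, was at 3.45 FPKM in the G9a/GLP double knockout, 14.6 in the g9a KO GLP heterozygote, 388 in the g9a knockout and 737 in the g9a heterozygote, while Amtn, another enamel protein, was listed at 0 in the G9a/GLP double knockout, and Klk4, an enamel protease, at 0 in the g9a KO GLP heterozygote. The part of tooth tissue in the Mepe values was not tested.

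Bglap was low in 1 embryonic library. It was at 199 FPKM in the G9a/GLP double knockout (139 to 259), 93.9 in the g9a KO GLP heterozygote (61.1 to 127), 173 in the g9a knockout (120 to 227) and 281 in the g9a heterozygote (199 to 363). The g9a KO GLP heterozygote lay below the G9a/GLP double knockout and the g9a heterozygote with intervals apart, and its interval overlapped that of the g9a knockout. Its log2 ratio to the g9a heterozygote was -1.57; 3.02% of genes were at least 2-fold lower with intervals apart in that comparison. Bglap has a near copy, Bglap2, and the handling of fragments that match several copies is unstated, so the split between them is uncertain. Bglap2 was at 30.6 FPKM in the G9a/GLP double knockout, 33.7 in the g9a KO GLP heterozygote, 19.3 in the g9a knockout and 27.8 in the g9a heterozygote. Bglap2 was thus not low in the g9a KO GLP heterozygote, where Bglap was. In the postnatal libraries Bglap2 was at 109 FPKM in the double knockout and 510.4 FPKM in the double heterozygote, a log2 ratio of -2.22.

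The other embryonic members kept within 2-fold. Dmp1 was at 49.9 FPKM in the G9a/GLP double knockout (39.7 to 85.8), 68.0 in the g9a KO GLP heterozygote (52.1 to 114), 76.5 in the g9a knockout (58.8 to 127) and 95.8 in the g9a heterozygote (72.0 to 158). Its order over the libraries was that of Mepe, but its intervals overlapped throughout. Ibsp was at 499.6 FPKM in the G9a/GLP double knockout, 697 in the g9a KO GLP heterozygote, 828 in the g9a knockout and 779 in the g9a heterozygote. Its intervals were wide, 317 to 1133 in the double knockout and 379 to 1832 in the g9a heterozygote. Spp1 stood between 734 and 896 FPKM, Alpl between 70.3 and 102, Phex between 24.2 and 33.3, Runx2 between 22.4 and 32.1 and Sost between 3.92 and 5.34. Sp7 was lowest in the g9a heterozygote, at 33.7 FPKM in the G9a/GLP double knockout (21.6 to 45.0), 45.7 in the g9a KO GLP heterozygote (29.7 to 60.0), 38.0 in the g9a knockout (24.6 to 50.5) and 23.5 in the g9a heterozygote (14.2 to 31.9). All 3 mutant libraries were above the g9a heterozygote for Sp7, with ratios of 0.50, 0.93 and 0.67, and their intervals overlapped its own. Phex is X-linked. Xist was at 208 FPKM in the G9a/GLP double knockout and 140 in the g9a knockout. It was at 0.272 FPKM in the g9a KO GLP heterozygote and 0.242 in the g9a heterozygote. Ddx3y, of the Y chromosome, was at 0 and 0.0489 FPKM in the first pair and 29.2 and 33.6 FPKM in the second. The first pair thus differs from the g9a heterozygote in these sex-linked genes as well as in genotype. The part of sex was not tested, for Phex or for any other gene.

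Among other bone genes, matrix and osteoclast genes stayed within 2-fold in the G9a/GLP double knockout, while some regulators and transcription factors did not. Of 22 osteoblast matrix and mineral genes none was 2-fold apart in the G9a/GLP double knockout, with a median of -0.14, and Col1a1 was at 2685 FPKM there and at 2710 FPKM in the g9a heterozygote. Medians were 0.08 in the g9a KO GLP heterozygote and 0.03 in the g9a knockout. Osteoclast genes had medians of -0.36, -0.34 and 0.04 in the G9a/GLP double knockout, the g9a KO GLP heterozygote and the g9a knockout, and none was 2-fold apart. Of 12 osteocyte and turnover genes, 3 were at least 2-fold lower in the G9a/GLP double knockout, against 3.28% of all genes compared, 1 in the g9a KO GLP heterozygote, against 4.84%, and 1 in the g9a knockout, against 1.78%. Tnfsf11, the RANK ligand that drives osteoclast formation, was at 2.15 FPKM in the G9a/GLP double knockout, 3.23 in the g9a KO GLP heterozygote, 3.15 in the g9a knockout and 8.85 in the g9a heterozygote. It was at least 2-fold lower in all 3 comparisons, each of which uses the g9a heterozygote value. Fgf23, the phosphate hormone of osteocytes, and Sfrp4, a Wnt inhibitor, were also at least 2-fold lower in the G9a/GLP double knockout, at 0.165 against 1.43 FPKM and at 8.95 against 20.6 FPKM. Of 12 transcription factors, 1 was at least 2-fold higher in the G9a/GLP double knockout, against 2.28% of all genes, and 1 lower, against 3.28%. The higher one was Twist1 and the lower one Msx2, a homeobox factor, with log2 ratios of 1.01 and -1.10. Twist1, which holds back Runx2, was at 60.0 FPKM in the G9a/GLP double knockout, 72.4 in the g9a KO GLP heterozygote, 37.8 in the g9a knockout and 29.3 in the g9a heterozygote, and Msx2 was at 6.82, 10.6, 9.47 and 15.8 FPKM in that order. Mature olfactory neuron markers differed more than the bone genes there, with medians of -1.14, -1.58 and -0.69 in the G9a/GLP double knockout, the g9a KO GLP heterozygote and the g9a knockout.

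A cluster on chromosome 5 holds 4 of the members beside Dspp, the dentin sialophosphoprotein of teeth. The 5 genes, which encode acidic phosphoproteins of bone and dentin, lie within 270 kb and were the only genes listed in that stretch. Dspp (104599731 to 104609146) was at 3.38 FPKM in the postnatal double knockout and 0.0488 FPKM in the postnatal double heterozygote, while Dmp1, next to it, was at 25.8 and 94.2 FPKM. Neighbours differed in opposite directions in that pair, and Mepe, between Ibsp and Spp1, was nearly level. Amelx on the X chromosome and Ambn, outside the stretch, had log2 ratios of 4.37 and 2.16 in the same pair, beside 2.06 for Dspp. Odam, also outside the stretch, had one of -0.48. In the embryonic libraries Dspp was at 2.62 FPKM in the G9a/GLP double knockout, 12.0 in the g9a KO GLP heterozygote, 31.9 in the g9a knockout and 31.1 in the g9a heterozygote.

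**Figure D4:**
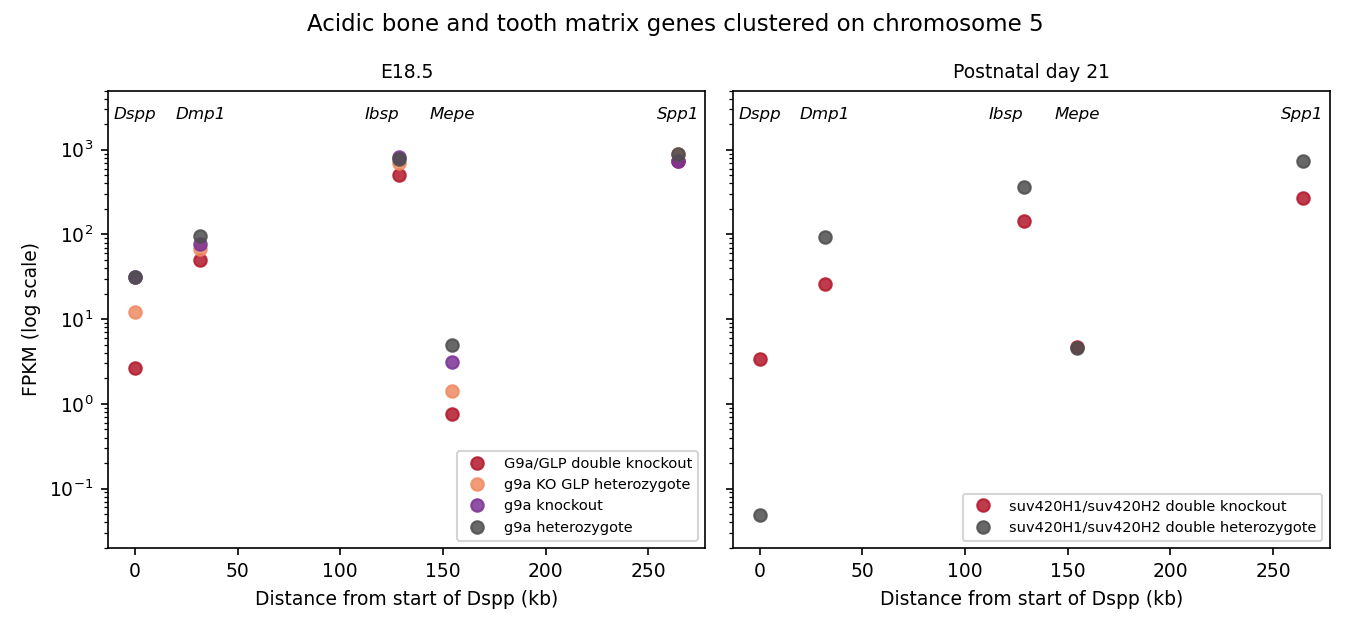
FPKM (log axis) of the 5 clustered genes by the distance of their start from that of Dspp in kb, for 4 embryonic and 2 postnatal libraries; each point is 1 library. Postnatal Dmp1, Ibsp and Spp1 are lower in the double knockout, Mepe is level at 4.76 and 4.51 FPKM, and Dspp is higher in the double knockout.

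The genes most like the 10 in pattern over the embryonic libraries were sought by the distance between log2(FPKM + 1) values, each centred on its own mean over the 4 libraries. The median profile of the 10 lay at -0.23 in the G9a/GLP double knockout, 0.02 in the g9a KO GLP heterozygote, 0.13 in the g9a knockout and 0.16 in the g9a heterozygote. Of 10868 genes with a mean of 5 FPKM or more, the 5 nearest were Adi1, Tnc, 1700088E04Rik, Trp63 and Gtl3, at distances of 0.048 to 0.053. The members themselves lay further from their own median profile, at 0.23 (Alpl) to 1.13 (Bglap). The names are a description of 4 libraries only.

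Levels at both stages can be set side by side but not compared, since the tables were made separately and the genotypes differ. Bglap was at 1114 FPKM in the postnatal double heterozygote and 281 FPKM in the g9a heterozygote at E18.5. Ibsp was at 359 and 779 FPKM, Dmp1 at 94.2 and 95.8, Mepe at 4.51 and 4.96, Spp1 at 746 and 896, and Runx2 at 11.2 and 28.4 FPKM in that order. Col1a1 was at 1858 and 2710 FPKM.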

How the data were processed

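The authors sequenced polyadenylated RNA from libraries made with ScriptSeq V2, per the labels' protocols. Reads went through TopHat, Cufflinks and Cuffdiff with mm9, per the submitters' processing notes, which leave versions and annotation unstated. The authors deposited FPKM per gene symbol for 4 embryonic and 2 postnatal libraries in separate tables. The embryonic table adds bounds of a confidence interval, per the file headers. The postnatal table adds a p-value and a q-value per gene from a test by the authors, per the file headers. The fold ratios, counts and medians were computed here in Python 3.11.15 with pandas 2.3.3.

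Groups came from the labels. Log2 ratios are on FPKM + 1, which understates differences of low genes, for genes at 1 FPKM or more in either library. All 10 members passed that minimum in every comparison. Counts are of genes at least 2-fold apart. No test was run, because each genotype had 1 library. Gene lists and the members were chosen with earlier results of these data known. Named genes were the members, the targeted genes, list genes 2-fold apart or among the 4 highest of a list, and the 5 nearest in pattern; list genes named beyond that, such as Phospho1 and Matn1, were chosen after their values were seen. Loci in the deposited tables count their start from 0 (6317 widths matched RefSeq gene lengths so), and are written here from 1.

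Total depth is not given. In low values of short receptor genes, FPKM times length fell in steps of 1 fragment, worth 0.0758 FPKM times kb in the postnatal double knockout and 0.0624 in the postnatal double heterozygote, with scores of 0.806 and 0.712 where 1 is perfect. The method was tested on simulated data. Fragment numbers use the longest GENCODE M21 coding transcript and are estimates. Embryonic steps were blurred (scores of 0.142 to 0.218), so the authors' intervals are given there. For 256 to 330 genes per embryonic library the FPKM lay outside its own interval; no member did. 6 columns of values (receptor-only sheets, and a repeat of the postnatal FPKM under unnamed headings) were not used. Values of some listed genes are not reported here.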

Additional observations from a re-analysis of the deposited data

How the results depend on the processing

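With 1 library per genotype no library could be left out. No paired analysis was possible because each genotype had a single library and the labels give no shared number. Members 2-fold higher and 2-fold lower were counted again in each of the 4 comparisons under each alternative setting. Of these counts 51 were unmoved and 7 moved. No member was 2-fold higher in any main comparison, so many of the unmoved counts stayed at 0. Against the g9a KO GLP heterozygote, the G9a/GLP double knockout had 1 member at least 2-fold higher (Bglap, log2 ratio 1.07) and 0 lower. At a minimum of 5 FPKM, 0 members were lower in the G9a/GLP double knockout and 1 in the g9a KO GLP heterozygote, since Mepe was no longer counted. Requiring the authors' intervals to be apart also left 1 in the g9a KO GLP heterozygote. Divided by the geometric mean of Col1a1 and Col1a2, chosen after seeing the data, the postnatal double knockout had 2 members at least 2-fold higher and 0 lower. That divisor was itself lower in the postnatal double knockout, which raises every ratio there. On that scale Ibsp (0.17), Spp1 (0.018), Sp7 (0.60), Sost (0.71), Alpl (0.82), Runx2 (1.18) and the median of the members (0.39) turned positive. Centred on the median of all genes, the postnatal median of the members was -0.998. Sost rests on the fewest fragments of the 10 genes in the postnatal pair, so its ratio is the least precise there.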

Other observations

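A few connective tissue and marrow genes, which belong to no bone list, differed among the embryonic libraries. Of 8 mesenchyme and fibroblast genes, 1 was at least 2-fold higher in the G9a/GLP double knockout than in the g9a heterozygote, against 2.28% of all genes. The same 1 was so in the g9a KO GLP heterozygote, against 2.29%, and none in the g9a knockout. It was Twist2. Twist2, a transcription factor of dermal and skeletal mesenchyme, was at 20.9 FPKM in the G9a/GLP double knockout, 19.7 in the g9a KO GLP heterozygote, 4.24 in the g9a knockout and 2.65 in the g9a heterozygote. Of 6 measured neutrophil and marrow genes, 2 were at least 2-fold higher in the g9a KO GLP heterozygote than in the g9a heterozygote, against 2.29% of all genes. They were S100a9, at 37.3 against 15.8 FPKM, and Ngp, at 6.07 against 2.35 FPKM. None of the list was 2-fold apart in the other embryonic comparisons. At postnatal day 21, Camp, an antimicrobial peptide of neutrophils, was at 6.24 FPKM in the double knockout and 16.5 FPKM in the double heterozygote, while Ltf, lactoferrin, which nasal glands also make, was at 135 and 89.4 FPKM. Of the 9 neutrophil and marrow genes in that pair, 7 had a ratio below 0 and 2 above, against 9029 of all 15162 genes below 0. Camp was the 1 at least 2-fold lower, against 2.33% of all genes. Each value is of 1 library, and no test was run here. The authors' own postnatal comparison, of 1 library with the other, lists a q of 0.0672 for Camp and of 0.00118 for Ltf. In it 1 gene of the list was lower with a q under 0.05, and Ltf was the 1 higher. The lower one was S100a8, at 89.3 FPKM in the double knockout and 176 FPKM in the double heterozygote.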
